A study of Mus musculus with 12 samples.

Results

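The cell cycle and DNA replication genes described here are 54 named genes, taken by symbol from a list that runs from origin licensing to cytokinesis, with the brightest probe set standing for each symbol. Of these, 53 had a row with a single gene symbol among the 19945 genes tested, and Ccnb1 was not analysed here. The list was drawn up by function, with earlier results of these data known. Measured signals enter the rule only through the choice of the brightest probe set. Each gene was followed across 12 arrays of mouse bone marrow-derived macrophages (BMDMs), which are macrophages grown from marrow cells. Hdac3 encodes a histone deacetylase, the catalytic subunit of the NCoR and SMRT corepressor complexes. The 4 groups of 3 arrays were Hdac3 -/- cells given lipopolysaccharide (LPS, a component of the bacterial outer membrane that macrophages sense through TLR4), Hdac3 -/- cells left untreated, Hdac3 +/- cells given LPS and Hdac3 +/- cells left untreated. LPS was used at 100 ng/ml for 4 h, and all cells were C57BL/6 cells on day 7 of culture in L929-conditioned medium, a source of the growth factor CSF1. The submitters call the +/- cells wild type, so the genotype comparison sets cells labelled -/- against cells that by their label keep 1 allele. How the allele was deleted and the age of the mice are not stated in the sources used here.

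Proliferating cells license replication origins in G1 by loading the MCM helicase, copy DNA in S phase and separate the chromosomes in mitosis. E2F factors, held in check by the pocket proteins Rb1, Rbl1 and Rbl2, drive genes for replication and nucleotide supply. Many mitotic genes are instead controlled through a promoter element called the CHR, often with CCAAT boxes nearby. BMDMs divide in response to CSF1, and LPS is known to stop that division.

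The promoters of the genes carry letters that match these elements. RefSeq promoter windows of build GRCm38.p6, from 250 bases before to 50 bases after the transcription start, matched 42 of the 53 measured genes. The E2F site was searched as TTCGCGC and TTGGCGC, the CHR as TTTGAA and TTCGAA and the CCAAT box as CCAAT, on both strands. An E2F match stood in 12 of the 42 (28.6%), against 4.47% of 27025 genes in the table. It was found in 10 of 22 genes of replication, nucleotide supply and E2F factors, and in 1 of 15 mitotic genes. A CHR match stood in 20 of 42 (47.6%, against 21.7% of all genes), in 7 of the same 22 genes and in 11 of the 15 mitotic genes. Both counts depended on the window. With only the 250 bases before the start, an E2F match stood in 19.0% of the 42 genes (3.66% of all genes), in 6 of 22 and in 1 of 15. A CHR match then stood in 33.3% (19.6% of all genes), in 7 of 22 and in 5 of 15. A CCAAT match stood in 30 of 42 (71.4%, against 41.1%). The stretches before the start of Mki67, Mcm6 and Top2a are printed because these were the genes of highest signal with an upstream E2F or CHR match. Mki67 encodes the proliferation marker Ki-67, Mcm6 a subunit of the replicative helicase, and Top2a the topoisomerase that untangles sister chromosomes.
Mki67: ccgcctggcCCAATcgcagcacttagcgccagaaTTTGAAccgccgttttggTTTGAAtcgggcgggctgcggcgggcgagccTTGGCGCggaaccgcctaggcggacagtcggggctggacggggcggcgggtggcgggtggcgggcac
Mcm6: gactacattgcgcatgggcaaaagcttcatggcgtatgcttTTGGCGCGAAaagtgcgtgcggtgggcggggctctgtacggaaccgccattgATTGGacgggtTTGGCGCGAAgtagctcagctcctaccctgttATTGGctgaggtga
Top2a: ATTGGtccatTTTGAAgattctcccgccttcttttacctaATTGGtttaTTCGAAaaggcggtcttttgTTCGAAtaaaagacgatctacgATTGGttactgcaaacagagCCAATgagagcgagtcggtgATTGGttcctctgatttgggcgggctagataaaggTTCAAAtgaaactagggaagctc
They lie at chr7:135716380-135716529, chr1:128359706-128359855 and chr11:99024190-99024378, all on the minus strand, and are written 5′ to 3′ up to the base before the start. Capitals mark matches to the searched letters on either strand, and in Mcm6 both forms of the E2F site overlap on opposite strands in each capital run that starts with TTGGCGC. Such a match describes these letters and is not evidence of a bound factor.

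Values are log2 signals, differences are LPS minus untreated or -/- minus +/-, and errors of differences are 1 SE from limma, for 3 arrays in each group. An array such as +/- LPS 1 is replicate 1 of its group. The sources do not say whether replicates come from separate animals, and p-values then reflect only how far these arrays differ, which may in part be technical. A gene was called changed at a limma p under 0.05 after Benjamini-Hochberg adjustment over all 19945 genes. Signal was used across genes only to pick probe sets and printed promoters and to mark dim probe sets, because probe sets differ in how brightly they bind. With bulk RNA, fewer dividing cells and less RNA per dividing cell cannot be told apart.

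Hdac3 itself was at 6.91, 7.25 and 7.18 in -/- LPS arrays and 7.39, 7.52 and 7.39 in -/- untreated arrays, below the 8.90, 9.02 and 8.66 of +/- LPS arrays and the 9.42, 9.10 and 8.98 of +/- untreated arrays. How much of the signal in -/- arrays came from intact Hdac3 RNA was not tested. The mean of 9 macrophage markers was between 11.05 and 11.51 on all 12 arrays, although single markers moved. With LPS 2 rose and 1 fell in -/- cells, and 3 rose and 3 fell in +/- cells. Mertk, a receptor for dying cells, fell by 2.61 in -/- cells (adjusted p = 6.21e-05) and by 2.01 in +/- cells (adjusted p = 0.000214). The Fc receptor gene Fcgr1 had a difference of -2.41 between -/- and +/- cells with LPS. The lists for neutrophil and haematopoietic progenitor markers stayed between 4.01 and 4.69 and between 4.54 and 4.79. Replicate 1 of both +/- groups had Y-linked signal and little Xist, at 3.20 with LPS and 3.93 untreated, against 9.67 to 10.97 on the other 10 arrays. In each +/- group replicate 1 was thus male and replicates 2 and 3 female, so they did not all come from 1 animal. All -/- arrays were female, with Xist between 9.84 and 10.49, so sex was not balanced between the genotypes. The part of sex in the genotype differences was not tested. The interquartile range of all signals was between 3.19 and 3.80, lowest on +/- LPS 2 and +/- LPS 3.

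Some arrays stood apart for these genes before any comparison. The +/- untreated 2 array was the lowest of its group for 52 of 53 genes, against 26.3% of all genes. The +/- LPS 2 array was the lowest of its group for 47 (28.9% of all genes), and -/- untreated 3 for 51 (31.5%). At the other end, -/- untreated 2 was the highest of its group for 48 (33.1% of all genes) and +/- LPS 1 for 44 (31.5%). The median of the 53 genes was 7.31, 7.38 and 7.52 in the -/- LPS arrays and 8.27, 8.58 and 7.66 in the -/- untreated arrays. It was 7.81, 6.59 and 7.24 in the +/- LPS arrays and 8.82, 7.63 and 8.76 in the +/- untreated arrays. The SD of these medians was 0.109 in the -/- LPS group, 0.469 in the -/- untreated group, 0.611 in the +/- LPS group and 0.668 in the +/- untreated group. The -/- LPS arrays lay closest to each other, and the lowest untreated median was just above the highest LPS median in -/- cells and below it in +/- cells. The neutrophil marker mean was highest on the +/- replicate 2 arrays, at 4.69 with LPS and 4.67 untreated, against 4.01 to 4.42 on the other 10 arrays. Some markers of other cell types also moved with LPS. The mean of 4 megakaryocyte markers was between 5.51 and 5.67 in -/- LPS arrays, against 4.94 to 5.24 in -/- untreated arrays, and between 6.30 and 6.69 in +/- LPS arrays, against 5.05 to 5.89 in +/- untreated arrays. Of these markers 0 of 4 passed in -/- cells and 1 of 4 rose in +/- cells. In +/- cells 2 of 5 eosinophil, 2 of 7 fibroblast, 1 of 6 dendritic cell, 1 of 6 T and NK cell and 1 of 4 B cell markers also rose, and 1 of 7 progenitor and 1 of 4 erythroid markers fell, while 0 of 9 neutrophil and 0 of 6 mast cell markers passed. In -/- cells the only marker of these lists to pass was the erythroid Tfrc, which fell by 0.98. Of all genes, 9.59% rose and 15.5% fell in +/- cells, and 3.69% rose and 5.18% fell in -/- cells. No marker list was tested against these shares. The part of these markers in the results was not tested.

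**Figure D1:**
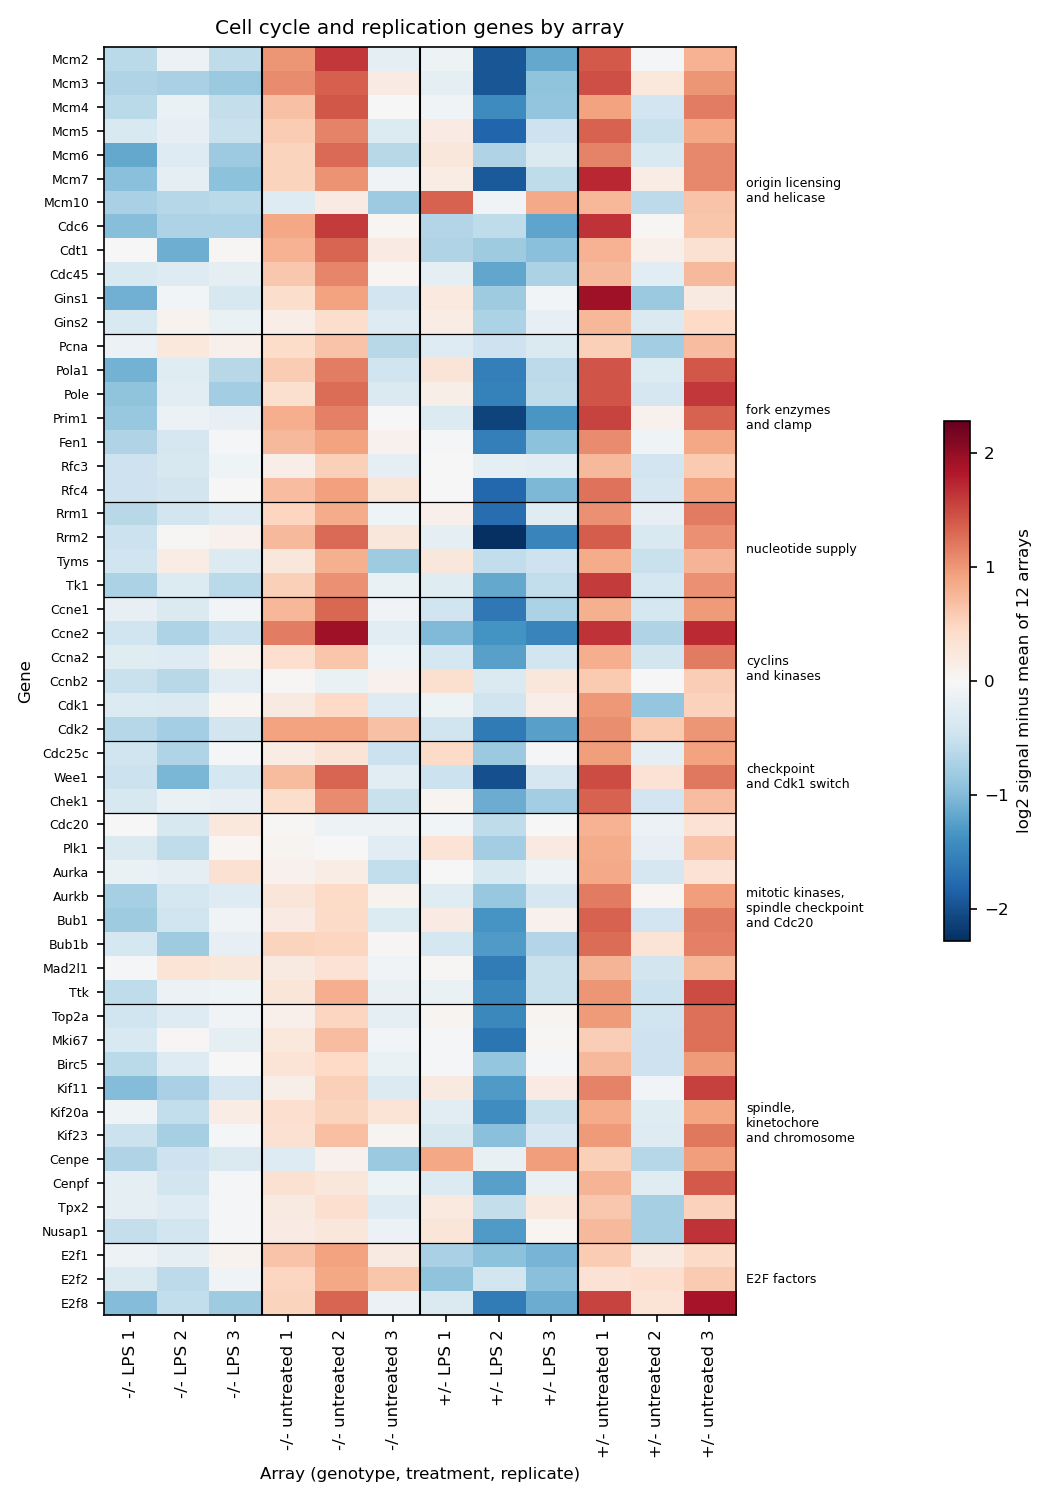
Log2 signal of each of the 53 genes (rows, grouped by role) on each of 12 arrays (columns), minus that gene's mean over the 12 arrays. Blue is below and red above the gene's mean; most genes are blue with LPS in both genotypes, +/- untreated 2 and -/- untreated 3 are paler than their group, and Mcm10 and Cenpe are red in +/- LPS 1 and 3.

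With LPS most of the 53 genes had lower signals in both genotypes, and more of them passed the threshold in Hdac3 +/- cells. In Hdac3 -/- cells 6 of 53 genes fell (11.3%, against 5.18% of all genes) and 0 rose (3.69% of all genes). Those that fell in -/- cells were the licensing genes Mcm3, Cdc6 and Cdt1, the S phase kinase gene Cdk2 and the factors E2f1 and E2f2. In Hdac3 +/- cells 29 fell (54.7%, against 15.5% of all genes) and 0 rose (9.59%). All 6 genes called in -/- cells were among the 29 called in +/- cells, which is 100.0% of the first list and 20.7% of the second. The median difference over the 53 genes was -0.79 in -/- cells, against 0.02 over all genes, and -1.21 in +/- cells, against 0.08.

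Direction was more uniform than the calls. The difference was negative for 50 of 53 genes in -/- cells and for 51 of 53 in +/- cells. Of all 19945 genes it was negative for 9201 in -/- cells and for 8291 in +/- cells. At unadjusted p under 0.05, 23 genes were lower in -/- cells (20.1% of all genes in either direction) and 37 in +/- cells (38.3%). Counting lower genes only, 2408 of all 19945 genes passed that threshold in -/- cells and 4137 in +/- cells. Groups did not overlap for 24 lower genes in -/- cells (15.7% of all genes) and for 15 in +/- cells (18.6%). No gene lay wholly above its untreated arrays in either genotype (12.6% of all genes in -/- cells and 18.1% in +/- cells). The number called in -/- cells depended on the fit. With array weights 29 genes fell in -/- cells (13.2% of all genes) and 33 in +/- cells (16.1%). With only the 2 groups compared these counts were 19 in -/- cells (7.3%) and 21 in +/- cells (11.7%). Without replicate 2 of both +/- groups they were 20 in -/- cells (6.38%) and 39 in +/- cells (12.8%). Single arrays also moved the count, to 2 in -/- cells without -/- untreated 1 or without -/- untreated 2, 3 without -/- LPS 1 or without -/- LPS 2, 12 without -/- untreated 3 and 13 without +/- untreated 2. In +/- cells it was 13 without +/- untreated 1, without +/- untreated 3 or without +/- LPS 2, and 47 without +/- untreated 2. Shares of all genes without single arrays are not given here, so a shift common to all genes cannot be told apart.

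Deviations from the group means correlated positively between the untreated and LPS arrays of each number in +/- cells, but not for every number in -/- cells. Larger correlations occurred between arrays of different genotypes, so the pairing by number is an assumption. Within the numbered +/- pairs 51, 45 and 52 of 53 genes were lower with LPS, with medians of -1.15, -0.92 and -1.46 in pairs 1, 2 and 3. A total of 45 genes were lower in all 3 pairs (26.5% of all genes), and 1, Mcm10, was higher in all 3 (31.2%). The 6 further exceptions with 1 pair above 0 were Gins1, Pcna, Rfc3, Cdk1, Aurka and Tpx2, each in pair 2. Cenpe was higher in pairs 1 and 2 only. With the replicate as a block within each genotype, 27 genes fell in -/- cells (6.82% of all genes) and 43 in +/- cells (17.2%). This block also treated the -/- arrays as pairs, although their correlations did not all point that way. All 29 genes called in +/- cells without the block were among those 43, joined by 14 others such as Mcm5, Mcm6, Chek1, Plk1, Top2a and Mki67.

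**Figure D2:**
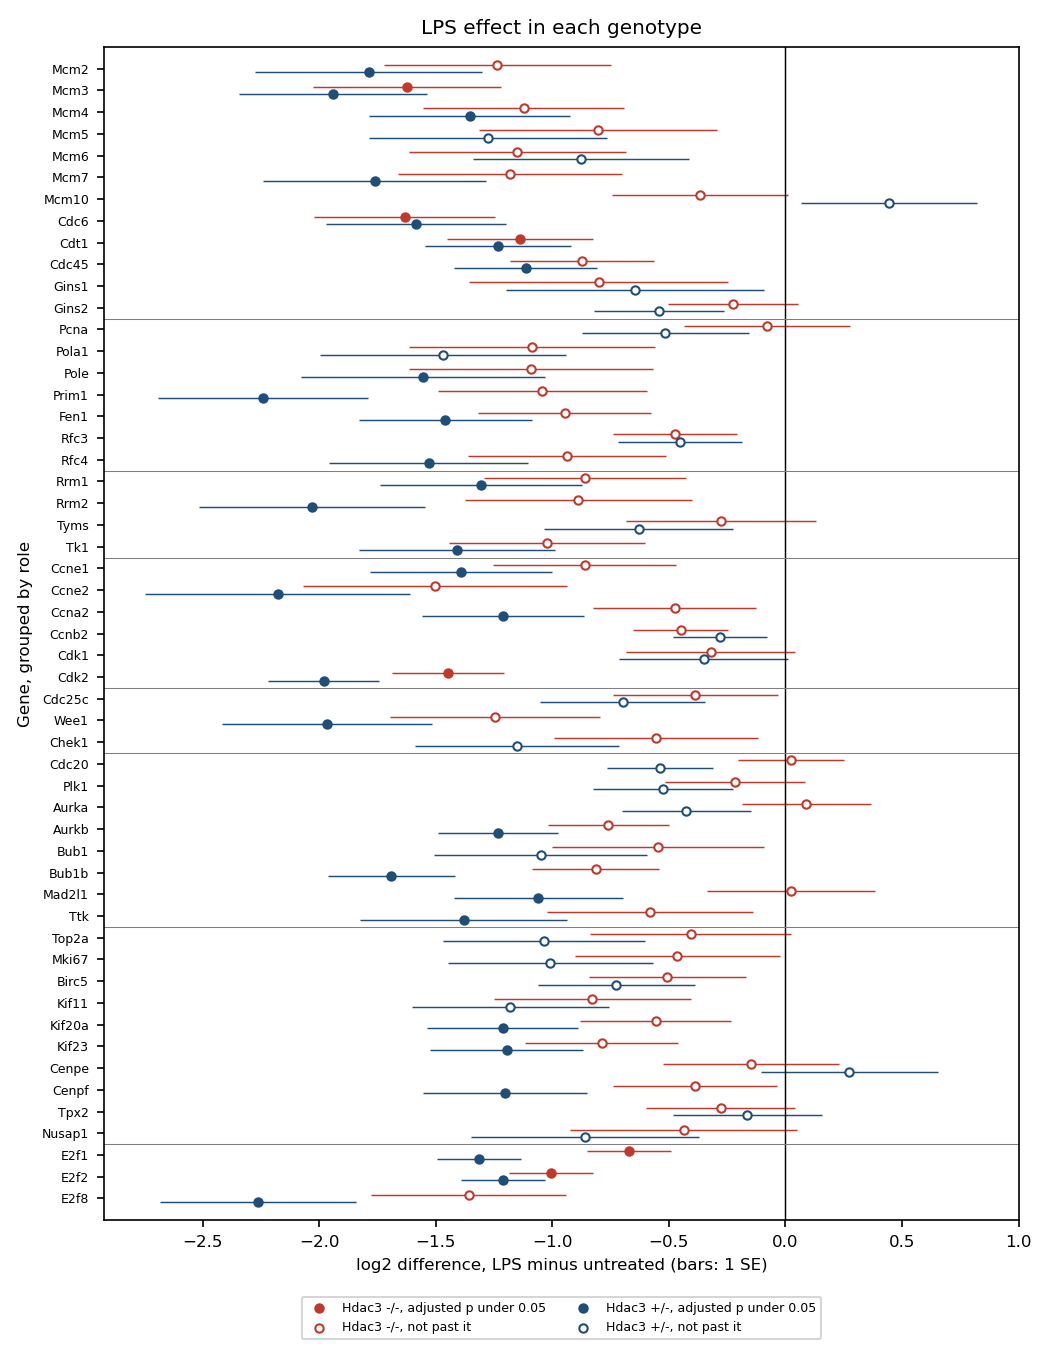
Log2 difference, LPS minus untreated, of the 53 genes in Hdac3 -/- cells (red) and Hdac3 +/- cells (blue), with bars of 1 SE; filled points have a limma adjusted p under 0.05. All filled points lie left of 0, and 6 of them are red and 29 blue.

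The E2F factors all fell with LPS in +/- cells, with a median of -1.31, and 2 of 3 fell in -/- cells, with a median of -1.01. E2f1, an activator of S phase genes, was at 7.31, 7.22 and 7.52 in -/- LPS arrays, against 8.09, 8.35 and 7.63 in -/- untreated arrays. It was at 6.69, 6.49 and 6.38 in +/- LPS arrays, against 8.01, 7.63 and 7.86 in +/- untreated arrays. In both genotypes every LPS array lay below every untreated array, and with LPS the +/- arrays were the lowest. The difference was -0.67 ± 0.18 in -/- cells (adjusted p = 0.0317) and -1.31 ± 0.18 in +/- cells (adjusted p = 0.000131). E2f2, another activator, had signals of 6.16, 5.89 and 6.42 in -/- LPS arrays, against 6.99, 7.37 and 7.12 in -/- untreated arrays. In +/- cells the signals were 5.57, 6.07 and 5.54 with LPS, against 6.83, 6.88 and 7.09 untreated. The treatments were again separate in both genotypes, with no array out of place. The difference was -1.01 ± 0.18 in -/- cells (adjusted p = 0.00269) and -1.21 ± 0.18 in +/- cells (adjusted p = 0.000254). E2f8, a repressor that E2F itself switches on, was at 5.91, 6.34 and 6.08 in -/- LPS arrays, against 7.40, 8.23 and 6.77 in -/- untreated arrays. It was at 6.56, 5.31 and 5.76 in +/- LPS arrays, against 8.43, 7.20 and 8.78 in +/- untreated arrays. Every LPS array was lower than every untreated array of its genotype, although the untreated arrays were widely spread. In +/- cells E2f8 fell by 2.26 ± 0.419, a 4.8-fold change (adjusted p = 0.00136), and the -1.36 ± 0.419 in -/- cells did not pass (adjusted p = 0.0624).

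Origin licensing and the helicase are covered by 12 genes, of which 3 fell in -/- cells (median -1.13) and 7 in +/- cells (median -1.25). Mcm3, a helicase subunit, was at 7.70, 7.65 and 7.55 in -/- LPS arrays, against 9.47, 9.74 and 8.57 in -/- untreated arrays. It was at 8.17, 6.43 and 7.47 in +/- LPS arrays, against 9.86, 8.63 and 9.40 in +/- untreated arrays. The -/- LPS arrays were almost identical, and neither genotype showed overlap. The difference was -1.62 ± 0.403 in -/- cells (adjusted p = 0.0211) and -1.94 ± 0.403 in +/- cells (adjusted p = 0.00302). Cdc6, which helps to load the helicase, was at 5.78, 6.06 and 6.05 in -/- LPS arrays, against 7.63, 8.35 and 6.80 in -/- untreated arrays. It was at 6.08, 6.17 and 5.56 in +/- LPS arrays, against 8.40, 6.78 and 7.39 in +/- untreated arrays. All 6 LPS arrays lay below all 6 untreated arrays. Cdc6 fell by 1.63 ± 0.386 in -/- cells (adjusted p = 0.016) and by 1.59 ± 0.386 in +/- cells (adjusted p = 0.00823). Cdt1, the second loading factor, was at 8.02, 6.92 and 8.06 in -/- LPS arrays, against 8.82, 9.37 and 8.23 in -/- untreated arrays. Its signals in +/- cells were 7.35, 7.22 and 7.09 with LPS, against 8.82, 8.16 and 8.38 untreated. Here -/- LPS 1 and 3 came close to the lowest untreated array without reaching it. The difference was -1.14 ± 0.312 in -/- cells (adjusted p = 0.0363) and -1.23 ± 0.312 in +/- cells (adjusted p = 0.0105).

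Of the other helicase genes, Mcm2, Mcm4, Mcm7 and Cdc45 fell in +/- cells, by 1.79, 1.36, 1.76 and 1.11 on the log2 scale. Their differences in -/- cells were -1.24, -1.12, -1.18 and -0.87, none of them past the threshold. Mcm5, Mcm6, Gins1 and Gins2, which are further subunits of the helicase complex, passed it in neither genotype. Their differences were -0.80, -1.15, -0.80 and -0.22 in -/- cells and -1.28, -0.88, -0.65 and -0.54 in +/- cells. Mcm10, an initiation factor that acts on the loaded helicase, went the other way in +/- cells and is described with the genotype comparison.

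At the replication fork 4 of 7 genes fell in +/- cells (median -1.47) and 0 of 7 in -/- cells (median -0.95), where 3 had an unadjusted p under 0.05. Prim1, the catalytic primase subunit, was at 6.29, 7.02 and 6.96 in -/- LPS arrays, against 7.97, 8.29 and 7.14 in -/- untreated arrays. It was at 6.84, 5.04 and 5.83 in +/- LPS arrays, against 8.69, 7.25 and 8.49 in +/- untreated arrays. Neither genotype showed overlap, and +/- LPS 2 was the lowest array of all. Prim1 fell by 2.24 ± 0.45 in +/- cells (adjusted p = 0.00241), against -1.04 ± 0.45 in -/- cells (adjusted p = 0.205). Rfc4, part of the complex that loads the sliding clamp, was at 6.90, 6.96 and 7.38 in -/- LPS arrays, against 8.07, 8.31 and 7.66 in -/- untreated arrays. It was at 7.38, 5.58 and 6.36 in +/- LPS arrays, against 8.62, 7.00 and 8.29 in +/- untreated arrays. In +/- cells the groups overlapped, as +/- LPS 1 was above +/- untreated 2. Rfc4 fell by 1.53 ± 0.425 in +/- cells (adjusted p = 0.0173), against -0.94 ± 0.425 in -/- cells (adjusted p = 0.236). Pole, the leading-strand polymerase, was at 5.84, 6.50 and 5.96 in -/- LPS arrays, against 7.12, 8.03 and 6.43 in -/- untreated arrays. It was at 6.88, 5.21 and 6.17 in +/- LPS arrays, against 8.18, 6.37 and 8.36 in +/- untreated arrays. Both genotypes overlapped by a single array on each side. The fall of 1.55 ± 0.524 in +/- cells was close to the threshold (adjusted p = 0.0442), and the difference in -/- cells was -1.09 ± 0.524 (adjusted p = 0.27). Fen1, the flap endonuclease of Okazaki fragment processing, fell by 1.46 in +/- cells. The sliding clamp Pcna, Pola1 and Rfc3 passed the threshold in neither genotype, with differences of -0.08, -1.09 and -0.47 in -/- cells and -0.51, -1.47 and -0.45 in +/- cells.

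Of the genes for nucleotide supply 3 of 4 fell in +/- cells (median -1.36) and 0 of 4 in -/- cells (median -0.87, 1 at an unadjusted p under 0.05). Rrm2, the small subunit of ribonucleotide reductase, was at 8.35, 8.88 and 8.95 in -/- LPS arrays, against 9.59, 10.14 and 9.11 in -/- untreated arrays. It was at 8.62, 6.57 and 7.34 in +/- LPS arrays, against 10.23, 8.50 and 9.89 in +/- untreated arrays. The -/- groups were just separate, while +/- LPS 1 was slightly above +/- untreated 2. Rrm2 fell by 2.03 ± 0.485 in +/- cells, a 4.08-fold change (adjusted p = 0.00741), against -0.89 ± 0.485 in -/- cells (adjusted p = 0.353). Tk1, the thymidine kinase of the salvage pathway, was at 7.96, 8.37 and 8.07 in -/- LPS arrays, against 9.23, 9.72 and 8.53 in -/- untreated arrays. It was at 8.41, 7.51 and 8.12 in +/- LPS arrays, against 10.28, 8.28 and 9.72 in +/- untreated arrays. Again only the +/- groups overlapped, through +/- LPS 1 and +/- untreated 2. Tk1 fell by 1.41 ± 0.42 in +/- cells (adjusted p = 0.025), against -1.02 ± 0.42 in -/- cells (adjusted p = 0.176). Rrm1, the large reductase subunit, was at 9.15, 9.37 and 9.49 in -/- LPS arrays, against 10.27, 10.63 and 9.69 in -/- untreated arrays. It was at 9.91, 8.05 and 9.51 in +/- LPS arrays, against 10.83, 9.60 and 10.97 in +/- untreated arrays. The same pair of +/- arrays caused the overlap. Rrm1 fell by 1.31 ± 0.434 in +/- cells (adjusted p = 0.0411), against -0.86 ± 0.434 in -/- cells (adjusted p = 0.301). Tyms, the thymidylate synthase gene, gave -0.28 in -/- cells and -0.63 in +/- cells and did not pass in either.

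Among 6 measured genes for cyclins and their kinases, 1 fell in -/- cells (median -0.67) and 4 in +/- cells (median -1.30). Cdk2, the kinase partner of cyclins E and A, was at 7.63, 7.51 and 7.86 in -/- LPS arrays, against 9.19, 9.19 and 8.95 in -/- untreated arrays. It was at 7.83, 6.67 and 7.05 in +/- LPS arrays, against 9.34, 8.87 and 9.28 in +/- untreated arrays. All 6 LPS arrays were at least 1 log2 unit below all 6 untreated arrays. Cdk2 fell by 1.45 ± 0.239 in -/- cells (adjusted p = 0.00152) and by 1.98 ± 0.239 in +/- cells (adjusted p = 4.82e-05), the smallest adjusted p among the 53 genes in each genotype. Ccne2, a cyclin of the G1 to S transition, was at 4.92, 4.68 and 4.89 in -/- LPS arrays, against 6.55, 7.31 and 5.14 in -/- untreated arrays. It was at 4.37, 4.03 and 3.88 in +/- LPS arrays, against 7.03, 4.70 and 7.09 in +/- untreated arrays. The LPS arrays lay close together within each genotype, and 1 untreated array of each genotype lay near them. Ccne2 fell by 2.18 ± 0.567 in +/- cells (adjusted p = 0.0122), against -1.50 ± 0.567 in -/- cells (adjusted p = 0.136), and its probe set was dim, with a mean signal of 5.38, under the median of all genes, 5.56. Ccne1, its paralogue, was at 7.06, 6.93 and 7.19 in -/- LPS arrays, against 8.02, 8.56 and 7.18 in -/- untreated arrays. It was at 6.80, 5.63 and 6.54 in +/- LPS arrays, against 8.06, 6.86 and 8.23 in +/- untreated arrays. The -/- groups overlapped marginally, and the +/- groups were barely separate. Ccne1 fell by 1.39 ± 0.392 in +/- cells (adjusted p = 0.0185), against -0.86 ± 0.392 in -/- cells (adjusted p = 0.237). Ccna2, the cyclin of S and G2, fell by 1.21 in +/- cells, against -0.48 in -/- cells. The mitotic cyclin gene Ccnb2 and its kinase Cdk1 moved least, with -0.45 and -0.32 in -/- cells and -0.28 and -0.35 in +/- cells, none past the threshold.

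Of the 3 genes that set the G2 checkpoint and the Cdk1 switch, 0 fell in -/- cells (median -0.55, 1 at an unadjusted p under 0.05) and 1 in +/- cells (median -1.15). That gene was Wee1, whose product restrains Cdk1. It was at 7.06, 6.52 and 7.15 in -/- LPS arrays, against 8.27, 8.89 and 7.30 in -/- untreated arrays. In +/- cells it was at 7.06, 5.55 and 7.18 with LPS, against 9.04, 7.89 and 8.76 untreated. No LPS array reached an untreated array of its genotype. Wee1 fell by 1.97 ± 0.451 in +/- cells, a 3.9-fold change (adjusted p = 0.0057), against -1.24 ± 0.451 in -/- cells (adjusted p = 0.118). The phosphatase gene Cdc25c, which activates Cdk1, gave -0.39 in -/- cells and -0.70 in +/- cells, and neither passed. The checkpoint kinase gene Chek1 gave -0.55 in -/- cells and -1.15 in +/- cells, also short of the threshold.

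Mitotic kinases, the spindle checkpoint and Cdc20 make up 8 genes, of which 0 fell in -/- cells (median -0.38, 2 at an unadjusted p under 0.05) and 4 in +/- cells (median -1.05). Bub1b, a spindle checkpoint protein, was at 8.14, 7.74 and 8.35 in -/- LPS arrays, against 9.05, 9.04 and 8.58 in -/- untreated arrays. It was at 8.15, 7.26 and 7.87 in +/- LPS arrays, against 9.81, 8.86 and 9.69 in +/- untreated arrays. Both genotypes were free of overlap. Bub1b fell by 1.69 ± 0.273 in +/- cells (adjusted p = 0.00048), against -0.81 ± 0.273 in -/- cells (adjusted p = 0.0874). The 3 numbered +/- pairs gave -1.66, -1.59 and -1.82, so the spread between pairs was small. Ttk, a kinase of the same checkpoint, was at 5.50, 5.95 and 5.99 in -/- LPS arrays, against 6.36, 6.91 and 5.91 in -/- untreated arrays. It was at 5.93, 4.59 and 5.58 in +/- LPS arrays, against 7.08, 5.59 and 7.57 in +/- untreated arrays. Both genotypes overlapped, each through its lowest untreated array. Ttk fell by 1.38 ± 0.443 in +/- cells (adjusted p = 0.0353), against -0.58 ± 0.443 in -/- cells (adjusted p = 0.556). Aurkb, the kinase of the chromosomal passenger complex, was at 8.03, 8.39 and 8.50 in -/- LPS arrays, against 9.07, 9.25 and 8.87 in -/- untreated arrays. It was at 8.52, 7.93 and 8.41 in +/- LPS arrays, against 9.98, 8.83 and 9.75 in +/- untreated arrays. Its groups were separate in both genotypes. Aurkb fell by 1.23 ± 0.259 in +/- cells (adjusted p = 0.0032), against -0.76 ± 0.259 in -/- cells (adjusted p = 0.0934). Mad2l1, a spindle checkpoint gene, fell by 1.06 in +/- cells, against 0.02 in -/- cells. Cdc20, Plk1, Aurka and Bub1 passed in neither genotype. They gave 0.03, -0.22, 0.09 and -0.55 in -/- cells and -0.54, -0.53, -0.43 and -1.05 in +/- cells.

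Spindle, kinetochore and chromosome genes numbered 10, of which 0 fell in -/- cells (median -0.45, 1 at an unadjusted p under 0.05) and 3 in +/- cells (median -1.02). Kif20a, a kinesin of cytokinesis, was at 7.85, 7.39 and 8.12 in -/- LPS arrays, against 8.33, 8.45 and 8.25 in -/- untreated arrays. It was at 7.70, 6.53 and 7.44 in +/- LPS arrays, against 8.80, 7.67 and 8.84 in +/- untreated arrays. The -/- untreated arrays were tightly grouped, and the +/- groups overlapped marginally. Kif20a fell by 1.21 ± 0.325 in +/- cells (adjusted p = 0.0142), against -0.56 ± 0.325 in -/- cells (adjusted p = 0.395). Cenpf, a kinetochore protein, was at 6.50, 6.30 and 6.68 in -/- LPS arrays, against 7.07, 6.97 and 6.61 in -/- untreated arrays. It was at 6.40, 5.49 and 6.55 in +/- LPS arrays, against 7.50, 6.44 and 8.12 in +/- untreated arrays. Both genotypes overlapped, and +/- untreated 3 was the highest array. Cenpf fell by 1.20 ± 0.352 in +/- cells (adjusted p = 0.0228), against -0.39 ± 0.352 in -/- cells (adjusted p = 0.643). Kif23, a kinesin of the central spindle, was at 8.01, 7.75 and 8.47 in -/- LPS arrays, against 8.84, 9.19 and 8.57 in -/- untreated arrays. It was at 8.13, 7.54 and 8.12 in +/- LPS arrays, against 9.46, 8.21 and 9.70 in +/- untreated arrays. Neither genotype showed overlap, by narrow margins. Kif23 fell by 1.20 ± 0.328 in +/- cells (adjusted p = 0.0163), against -0.79 ± 0.328 in -/- cells (adjusted p = 0.185). The promoter examples Mki67 and Top2a gave -0.46 and -0.41 in -/- cells and -1.01 and -1.04 in +/- cells, none past the threshold. Birc5, Kif11, Tpx2 and Nusap1, all of the spindle or the passenger complex, gave between -0.83 and -0.28 in -/- cells and between -1.18 and -0.16 in +/- cells, and none passed.

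**Figure D3:**
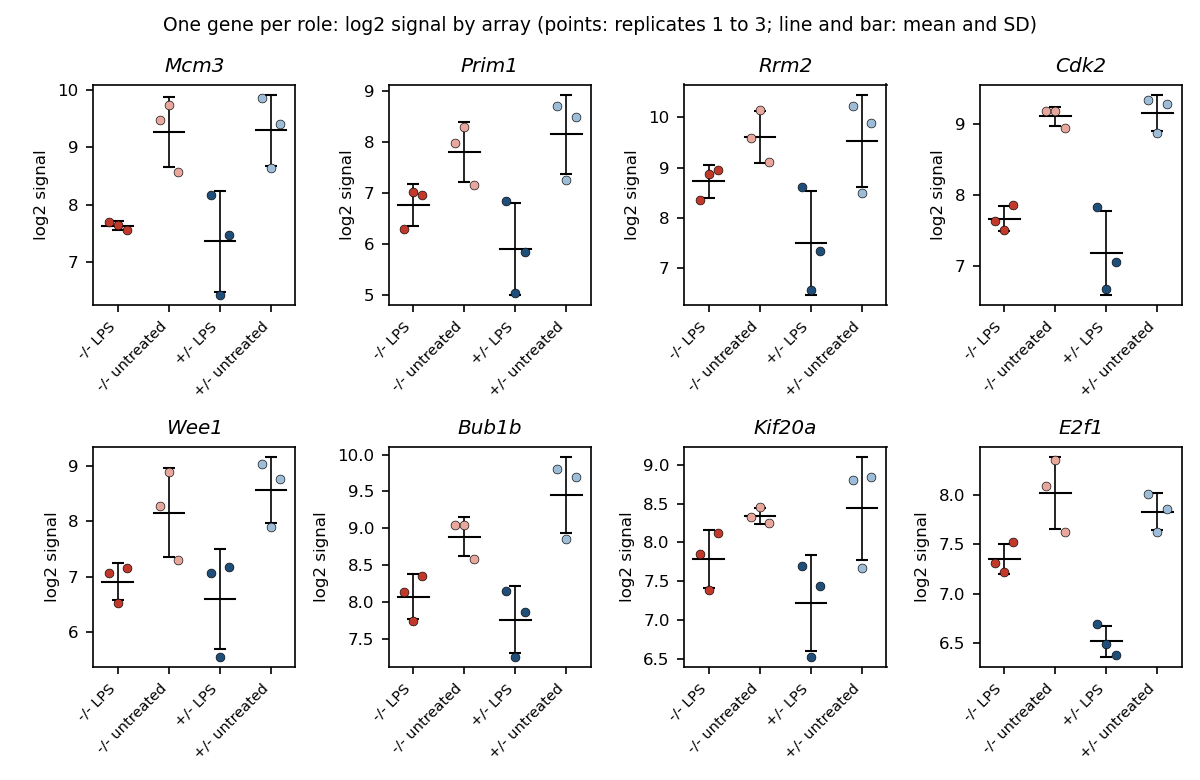
Log2 signal of 1 gene per role (Mcm3, Prim1, Rrm2, Cdk2, Wee1, Bub1b, Kif20a and E2f1) on the 12 arrays, in the order -/- LPS, -/- untreated, +/- LPS and +/- untreated, with replicates 1 to 3 as points from left to right and the group mean and SD as line and bar. The Cdk2 and E2f1 LPS arrays lie below every untreated array of their genotype, and +/- untreated 2 is the lowest untreated +/- array in all 8 panels; the axes do not start at 0.

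Compared by stage, replication, nucleotide and E2F genes (26) had a median LPS difference of -0.98 in -/- cells and -1.33 in +/- cells, and mitotic genes (18) of -0.45 in -/- cells and -1.04 in +/- cells. Calls numbered 5 of 26 and 0 of 18 in -/- cells, and 17 of 26 and 7 of 18 in +/- cells. The difference between these stages was not tested.

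The LPS difference was the more negative in +/- cells for 45 of 53 genes, against 9452 of all 19945 genes. The 53 genes shifted together by array, so their signs are not separate observations. The difference of the LPS responses passed for 0 of 53 genes in limma (1.08% of all genes). At an unadjusted p under 0.05 it passed for 2, E2f1 and Bub1b (11.4% of all genes). The median difference of the responses, -/- minus +/-, was 0.46, against -0.02 over all genes. Its range for the 53 genes was from -0.81 for Mcm10 to 1.20 for Prim1, and the smallest adjusted p was 0.325. With the replicate as a block within each genotype, 1 gene, Mad2l1, passed, at 1.08 (adjusted p = 0.0414; 0.536% of all genes were higher).

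Between untreated Hdac3 -/- and +/- cells no gene passed the threshold. In limma 0 of 53 were higher (1.22% of all genes) and 0 lower (1.44%), and at an unadjusted p under 0.05 the count was also 0 (12.7% of all genes in either direction). No gene had groups that did not overlap (9.64% of all genes higher and 8.35% lower). The smallest adjusted p was 0.422, for Bub1b. The median difference was -0.22 (0.02 without -/- untreated 3), with 42 of 53 genes lower in -/- cells (9508 of all 19945 genes). All 18 mitotic genes were among the lower ones, with a median of -0.42, while replication, nucleotide and E2F genes had a median of -0.12. This count changed only when replicate 2 of both +/- groups was left out. Without it in both +/- groups, a setting chosen after seeing the data, 10 genes were lower in -/- cells (2.32% of all genes), from Aurkb at -0.80 to Kif11 at -1.23, with a median over the 53 genes of -0.69. The others were Plk1, Bub1, Bub1b, Cenpe, Cenpf, Mcm10, Nusap1 and Top2a. Without +/- untreated 2 alone the count was 0.

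With LPS, Hdac3 -/- cells had more E2f1 and less Mcm10 RNA than +/- cells. Of 53 genes 1 was higher (9.69% of all genes) and 1 lower (5.99%), and 7 had an unadjusted p under 0.05 (28.9% of all genes). The median difference was 0.18 (-0.09 without +/- LPS 2), against -0.04 over all genes. E2f1 was between 7.22 and 7.52 in the -/- LPS arrays, against 6.38 to 6.69 in the +/- LPS arrays. Its difference was 0.83 ± 0.18, 1.78-fold (adjusted p = 0.00664), and it passed under each of 23 alternatives, with adjusted p-values between 0.00229 and 0.0447. In untreated cells E2f1 differed by 0.19 ± 0.18 (adjusted p = 0.778).

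Mcm10 was at 6.75, 6.84 and 6.87 in -/- LPS arrays, against 8.83, 7.41 and 8.36 in +/- LPS arrays. In untreated cells it was at 7.20, 7.68 and 6.67 in -/- arrays, against 8.24, 6.89 and 8.13 in +/- arrays. With LPS the genotypes were separate, and without it they overlapped. The difference with LPS was -1.38 ± 0.378, 2.6-fold (adjusted p = 0.0243). It was lost in 7 of 23 alternatives, with adjusted p-values up to 0.0945, namely without any 1 of the -/- LPS arrays, without +/- LPS 1, without +/- LPS 3 and without replicate 1 or replicate 3 of both +/- groups. LPS itself gave Mcm10 0.45 ± 0.378 in +/- cells (adjusted p = 0.399) and -0.37 ± 0.378 in -/- cells (adjusted p = 0.699), and the pairs of +/- arrays gave 0.59, 0.52 and 0.23.

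Groups did not overlap for 5 genes higher in -/- cells with LPS (17.3% of all genes), namely Pcna, Ccne1, Ccne2, Ccna2 and E2f1. They did not overlap for 2 lower genes (14.5%), Mcm10 and Cenpe. Cenpe, a kinetochore motor, was at 7.10, 7.32 and 7.45 in -/- LPS arrays, against 8.67, 7.62 and 8.73 in +/- LPS arrays. The lowest +/- array was only just above the -/- arrays. Its difference of -1.05 ± 0.378 did not pass (adjusted p = 0.0792). Cenpe passed under some alternatives but not under others. The limma adjusted p was 0.0103 with array weights, 0.0263 with only the 2 groups and 0.0272 without +/- LPS 2. Ccne1 and Ccne2 differed by 0.73 ± 0.392 (adjusted p = 0.237) and 0.74 ± 0.567 (adjusted p = 0.429), and Pcna by 0.44 ± 0.357 (adjusted p = 0.461). Rrm2, Prim1 and Mad2l1 had differences of 1.22 ± 0.485, 0.85 ± 0.45 and 0.86 ± 0.362, with adjusted p-values of 0.112, 0.234 and 0.13. In these 3 genes +/- LPS 1 overlapped the -/- arrays, while +/- LPS 2 and 3 lay below all of them. Without replicate 1 of both +/- groups, which leaves female arrays only, 6 genes were higher (11.3%, against 11.0% of all genes) and 0 lower. The higher genes were E2f1, Cdk2, Mad2l1, Prim1, Rfc4 and Rrm2. As +/- LPS 1 was the highest of its group for 44 of 53 genes, leaving it out also lowers most +/- LPS means. Sex and the level of that array cannot be told apart here. Without replicate 2 of both +/- groups 2 were higher (8.17%), E2f1 and E2f2, and 4 lower (5.73%), Mcm10, Cenpe, Ccnb2 and Kif11.

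Further genes of the pathway came from 4 lists of the same kind. The share of all genes called lower with LPS was 5.18% in -/- cells and 15.5% in +/- cells, and that called higher 9.59% in +/- cells. Of 27 further replication genes, 6 fell and 0 rose with LPS in -/- cells, and 21 fell and 0 rose in +/- cells, with medians of -0.81 and -1.36. Pole2, a subunit of the leading-strand polymerase, fell by 1.18 in -/- cells (adjusted p = 0.0379) and by 2.43 in +/- cells (adjusted p = 0.000113). Gmnn, the inhibitor of Cdt1, fell by 1.44 in -/- cells and by 1.96 in +/- cells, and the maintenance methyltransferase gene Dnmt1 by 1.58 in -/- cells and by 1.88 in +/- cells. Of 29 further mitosis genes, 1 fell in -/- cells (Cdc25b), and 11 fell and 1 rose in +/- cells, with medians of -0.50 and -0.93. The condensin genes Ncapd2 and Ncapg were among those that fell in +/- cells, by 1.61 and 1.60. Of 9 S phase repair genes, 1 fell in -/- cells and 7 in +/- cells, and the mismatch repair gene Msh6 fell by 1.27 in -/- cells and by 2.11 in +/- cells.

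Timeless, a component of the fork protection complex, was the further replication gene that was lower in -/- cells with LPS. It was at 5.91, 5.71 and 5.67 in -/- LPS arrays, against 7.73, 7.51 and 7.30 in +/- LPS arrays. No array came near the other genotype. The difference was -1.75 ± 0.35, 3.36-fold (adjusted p = 0.00421). Pole2 and Pold2, polymerase subunits, were higher in -/- cells with LPS, by 1.26 (adjusted p = 0.0187) and 1.01 (adjusted p = 0.0322).

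Of 21 inhibitors, pocket proteins and other E2F family genes, 4 were higher in -/- cells with LPS (E2f6, Rbl2, Tfdp2 and E2f4) and 3 lower (Rbl1, Cdkn2d and Cdkn1b). Of all genes, 9.69% were higher and 5.99% lower in this comparison, and the list was not tested against these shares. Untreated, 1 of 21 passed, E2f4, which was higher in -/- cells by 0.60 (adjusted p = 0.0406; 1.22% of all genes were higher). With LPS, E2f6, a repressive E2F, was at 7.51, 7.15 and 7.86 in -/- arrays, against 6.61, 6.12 and 5.52 in +/- arrays. The genotypes were separate. E2f6 differed by 1.43 ± 0.26 (adjusted p = 0.00224). Rbl1, the pocket protein p107, was at 7.55, 7.70 and 7.77 in -/- LPS arrays, against 9.41, 8.58 and 9.36 in +/- LPS arrays. Here the -/- arrays were the lower ones, again with no overlap. Rbl1 differed by -1.44 ± 0.341 (adjusted p = 0.0111). With LPS, 5 of the 21 genes fell and 0 rose in -/- cells (5.18% of all genes fell). In +/- cells 8 fell and 0 rose (15.5% of all genes fell). The medians were -0.31 in -/- cells and -0.36 in +/- cells. The retinoblastoma gene Rb1 fell with LPS by 1.34 in -/- cells and by 1.86 in +/- cells.

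**Figure D4:**
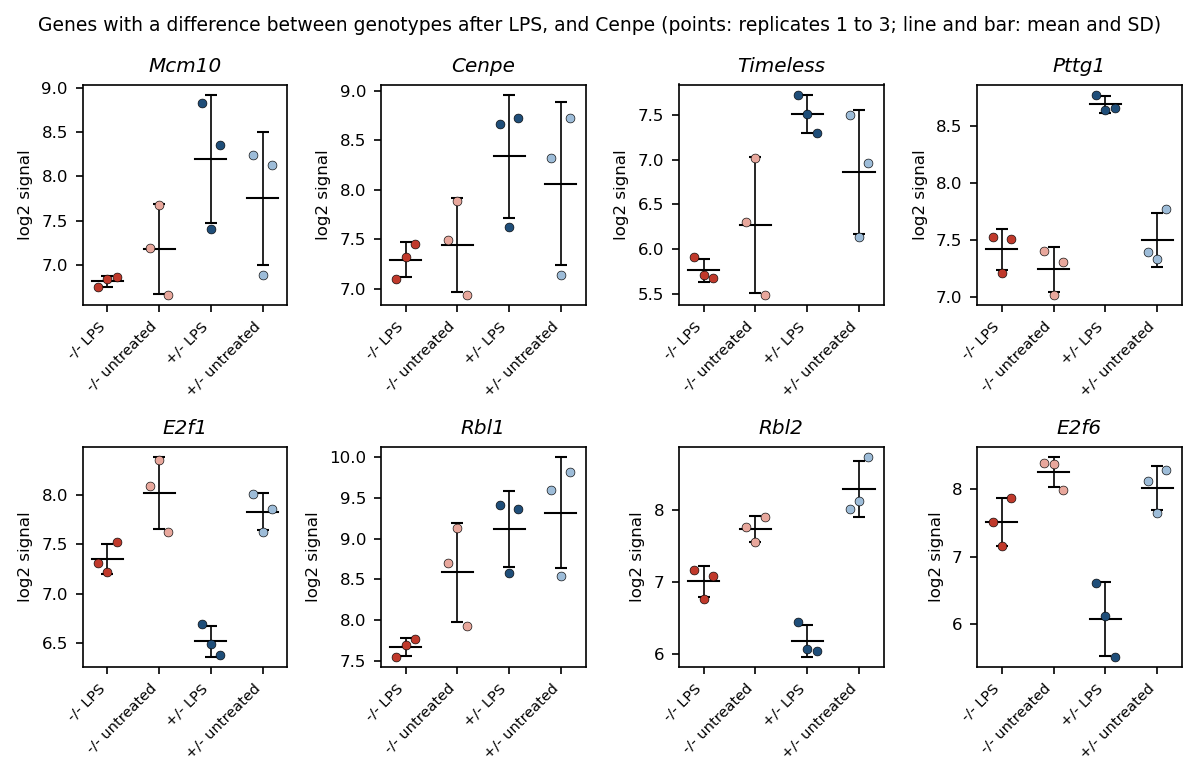
Log2 signal on the 12 arrays of Mcm10, Cenpe and E2f1 from the module and of Timeless, Pttg1, Rbl1, Rbl2 and E2f6 from the further lists, in the order -/- LPS, -/- untreated, +/- LPS and +/- untreated, with replicates 1 to 3 as points from left to right and group mean and SD as line and bar. With LPS the -/- arrays lie below the +/- arrays for Mcm10, Cenpe, Timeless, Pttg1 and Rbl1 and above them for E2f1, Rbl2 and E2f6; the axes do not start at 0.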

How the data were processed

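RNA of 12 BMDM cultures was measured on single-colour Affymetrix arrays. The authors deposited a log2 signal for each probe set, obtained with RMA and affy, per the submitters' processing notes. RMA normalizes arrays to a common distribution, so each value is relative to the other genes on the array. The deposited signals still differed in spread, with interquartile ranges from 3.19 to 3.80. With a further quantile normalization, Ccne1, Cdc45, Cenpf, Mcm4, Pole and Ttk no longer passed for LPS in +/- cells. The part of this spread in the LPS differences was not tested. Tool versions and the build are not stated here by any source. Of 28193 probe sets, 21648 had 1 gene symbol in the platform annotation, 1313 several and 5232 none. Only the first kind was used, and 21561 of these matched a RefSeq gene of GRCm38.p6 by Entrez identifier. The probe set of highest mean signal stood for each of 19945 genes; all 12 columns were used. Pcna, Tk1 and Top2a had a second probe set, with the same direction except for Top2a between genotypes with LPS (0.17 in the one used and -0.11 in the other).

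A mean per group was fitted to all genes and arrays with limma 3.58.1 in R 4.3.3 (lmFit and eBayes), with 5 contrasts and Benjamini-Hochberg adjustment over 19945 genes. The code was tested on simulated data. Python 3.11.15, pandas 2.3.3, numpy 2.4.6 and matplotlib 3.10.9 were used for tables, promoter searches and figures. Values in every array are given for up to 3 genes per role, those called in most contrasts and, among ties, with the largest summed change. Array values of Mcm10, Cenpe, Timeless, E2f6 and Rbl1 were added after their values were seen. The names of Tfdp2, E2f4 and Cdkn1b were added in the same way. Array values of Pttg1 and Rbl2 are given because the difference of their LPS responses passed. From further lists, up to 4 called genes of largest change were eligible in each contrast. The genes and the lists were chosen with earlier results of these data known. Cdkn1a was not analysed here.

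Replicate numbers in the labels were checked as a pairing. Deviations from group means of same-numbered untreated and LPS arrays correlated at 0.243, 0.327 and 0.223 in +/- cells, and at 0.0898, 0.195 and -0.122 in -/- cells. Every value being over 0.1 in +/- cells only, the numbers were taken to pair the +/- arrays. Arrays of different genotypes also correlated, at up to 0.514 for +/- untreated 2 and -/- untreated 3. The correlations alone therefore do not establish the pairing. Alternatives were other normalizations, array weights, a trend in the variance, a filter on dim genes, averaged probe sets, the 2 groups alone, replicate blocks and leaving out arrays or pairs. The number of arrays limits the precision.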

Additional observations from a re-analysis of the deposited data

Results flagged for a closer look

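The LPS response differed between genotypes for 2 further genes of the pathway, by the test of the difference itself. They were 1 of 29 further mitosis genes and 1 of 21 inhibitors, pocket proteins and other E2F family genes. Of the further replication genes 0 of 27 passed, and of the repair genes 0 of 9 (1.08% of all genes). These calls were not followed under the alternatives. Pttg1, which encodes securin, the inhibitor of separase, had a response in -/- cells minus that in +/- cells of -1.03 ± 0.218 (limma adjusted p = 0.0402). It was at 7.53, 7.21 and 7.51 in -/- LPS arrays and 7.40, 7.02 and 7.31 in -/- untreated arrays. In +/- cells it was at 8.78, 8.64 and 8.66 with LPS and at 7.39, 7.33 and 7.77 untreated. The +/- LPS arrays stood above all others. LPS gave 0.17 in -/- cells and 1.20 in +/- cells, and Pttg1 was the 1 gene of the mitosis list that rose there.

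Rbl2, which encodes the pocket protein p130, had a difference of the responses of 1.38 ± 0.278 (limma adjusted p = 0.0313). It was at 7.17, 6.77 and 7.09 in -/- LPS arrays and 7.76, 7.55 and 7.90 in -/- untreated arrays. In +/- cells it was at 6.44, 6.07 and 6.04 with LPS and at 8.02, 8.12 and 8.74 untreated. LPS arrays were lower than untreated arrays in both genotypes, further so in +/- cells. LPS gave -0.73 in -/- cells and -2.11 in +/- cells.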

How the results depend on the processing

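No call changed sign under any alternative, but the genotype medians did, to -0.09 with LPS without +/- LPS 2 and to 0.02 untreated without -/- untreated 3. The count of 6 genes lower with LPS in -/- cells became 29 with array weights, 19 with only the 2 groups, 27 with the replicate block within genotype and 20 without replicate 2 of both +/- groups, and it ran from 2 to 13 when single arrays were left out. The count of 29 in +/- cells became 19 with cyclic loess and 9 without replicate 3 of both +/- groups (39 without replicate 2), and 13 to 47 without single arrays. The LPS medians kept their sign, from -0.97 to -0.52 in -/- cells and from -1.62 to -0.88 in +/- cells. The untreated genotype count became 10 lower without replicate 2 of both +/- groups; its median ran from -0.69 to 0.02. With LPS the genotype count became 2 higher and 3 lower with array weights, 3 lower with cyclic loess, 2 and 2 with only the 2 groups, and 2 lower with the replicate block over all groups. Single arrays left out gave 1 to 4 higher and 0 to 3 lower. Leaving out replicate 1, 2 or 3 of both +/- groups gave 6, 2 and 1 higher and 0, 4 and 0 lower. Its median ran from -0.09 to 0.47. The difference of the responses became 1 higher with the replicate block within genotype, and its median ran from 0.12 to 0.87. The share of genes with a CHR match became 33.3% before the start only. A share of all genes was set beside only some of these counts. The cause of these shifts was not tested. The pairing of replicates changed no other count by over 1.5 times. Under every alternative 2 of 6 calls held in -/- cells (Cdk2 and E2f2) and 9 of 29 in +/- cells (Aurkb, Bub1b, Cdk2, E2f1, E2f2, E2f8, Mcm3, Prim1 and Wee1). Leaving out replicate pairs of +/- arrays was chosen after seeing the data.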
